A study of Mus musculus with 2 samples.

Results

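Solute carriers are membrane proteins that move sugars, amino acids, phosphate, metal ions, nucleosides and other small solutes. They work by facilitated diffusion, by exchange, or by coupling to gradients of sodium, protons or chloride, and most are named Slc with a family number and a member number. In fibroblasts they supply glucose, amino acids and phosphate for growth, set cell volume through chloride and potassium, and carry metabolites across the membranes of mitochondria and the Golgi. The genes described here are those whose symbol begins with Slc and a number, read from the platform annotation of the Affymetrix MG_U74Av2 array wherever a probe set was assigned to exactly 1 gene. The array carried 185 such probe sets for 151 of 8251 named genes, of which 122 had 1 probe set and 29 had several. Of these, 3 members by symbol, Slc4a1ap, Slc9a3r1 and Slc9a3r2, are adaptor proteins that bind transporters and are not carriers themselves.

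The study compared 3T3 cells, which are mouse embryo fibroblasts grown as a permanent line, in 2 states with 1 array and 1 RNA sample each. In the suspension group, cells were held in suspension in serum-free DMEM, for a time that the labels do not state. In the fibronectin group, cells in the same serum-free DMEM were plated for 30 min on fibronectin at 10 µg/ml, a matrix protein to which cells attach through integrins. According to the labels, the aim was to find genes that fibronectin induces and to follow genes of MAPK signalling. The series text speaks of 2 replicates, but the labels give 1 sample per group and do not say whether it was 1 culture or a pool. As each group had 1 array, there is no replicate error and no test, and "higher" and "lower" describe the 2 arrays. The arrays also differed in chip lot, operator, fluidics module and scan day, which cannot be told apart from the condition.

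Values are MAS5 signals on a linear scale, set to a common trimmed mean and given for suspension first and fibronectin second. A ratio is the difference of log2 signals, fibronectin minus suspension, with signals under a floor of 490 raised to that floor. A gene counted as measured where its signal reached the floor in 1 array or both, and if 1 array did not reach it, the fold is a bound, written as at least N-fold. The 34 negative control probe sets, which are antisense, bacterial or yeast sequences, had a 95th percentile of 1403 in suspension and 1873 on fibronectin. Their median went the other way, with 459 in suspension and 292 on fibronectin. Members above the 95th percentile in both arrays are the ones whose ratios rest on signal clearly above background. Between 2 probe sets of 1 gene, log2 ratios of all genes implied an SD of 0.69 for a single ratio (1146 genes), and 0.40 where both probe sets were above the negative controls in both arrays (197 genes). A 2-fold ratio is 1 on this log2 scale, so that for a dim gene it is not far outside this spread. Fibroblast markers were checked against the label: 11 of 14 were above the negative controls in both arrays, among them Col1a1 with signals of 45605 and 68592, whereas Vim had 1421 and 686 and Thy1 was below the floor. Of the marker lists of other cell types, the adipocyte list had 1 of 4 genes and the neural list 1 of 5 above the negative controls in both arrays. The lists of macrophage and blood, epithelial, endothelial and muscle cells had 0.

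Of the 151 Slc genes, 115 were measured and 36 lay below the floor in both arrays. The latter included Slc16a1, a lactate transporter, with 64 and 66, Slc7a1, a transporter of cationic amino acids, with 162 and 84, and Slc8a1, the sodium-calcium exchanger, in all 3 of its probe sets. In 82 genes both arrays reached the floor, in 11 only fibronectin did and in 22 only suspension did. Of the 115, 42 were above the negative controls in both arrays, 16 in 1 array and 57 in neither.

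As a whole the Slc genes had no common direction. At least 2-fold higher on fibronectin were 10 of 115 measured genes (8.70%), beside 5.79% of the 6385 measured genes of the array. At least 2-fold lower were 15 (13.0%), beside 9.27% of all genes. With a limit of 1.5-fold, 25 were higher (21.7%, all genes 15.9%) and 21 lower (18.3%, all genes 22.6%). The median log2 ratio was -0.03, against -0.09 over all measured genes. These shares are near those of the array as a whole. Of the 15 lower genes, 10 were bounds with fibronectin below the floor, and none was above the negative controls in both arrays. Of the 10 higher genes, 3 were bounds and 3 were above the negative controls in both arrays: Slc39a7, Slc29a1 and Slc12a2. Just inside the 2-fold limit were Slc12a2 (log2 ratio 1.02), Slc7a6 (1.04), Slc6a4 (-1.04) and Slc27a5 (-1.01, a bound). Just outside it were Slc38a10 (0.94), Slc27a1 (0.88) and Slc66a2 (0.86). Slc2a2 (-0.91) was outside it only as a bound set by the floor, and had -3.98 without a floor. Slc6a4, Slc27a5 and Slc6a18 were not past 2-fold with median scaling, quantile normalization or loess. Nor was Slc38a5 with median scaling, or Slc12a2 with quantile normalization or loess. A further alternative was scaling to 9 hybridisation spikes, control transcripts added to the labelled sample. With it Slc1a4, Slc7a6, Slc6a2, Slc27a4, Slc39a7, Slc29a1 and Slc12a2 were not past 2-fold, and only 3 of the 10 higher genes were.

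**Figure D1:**
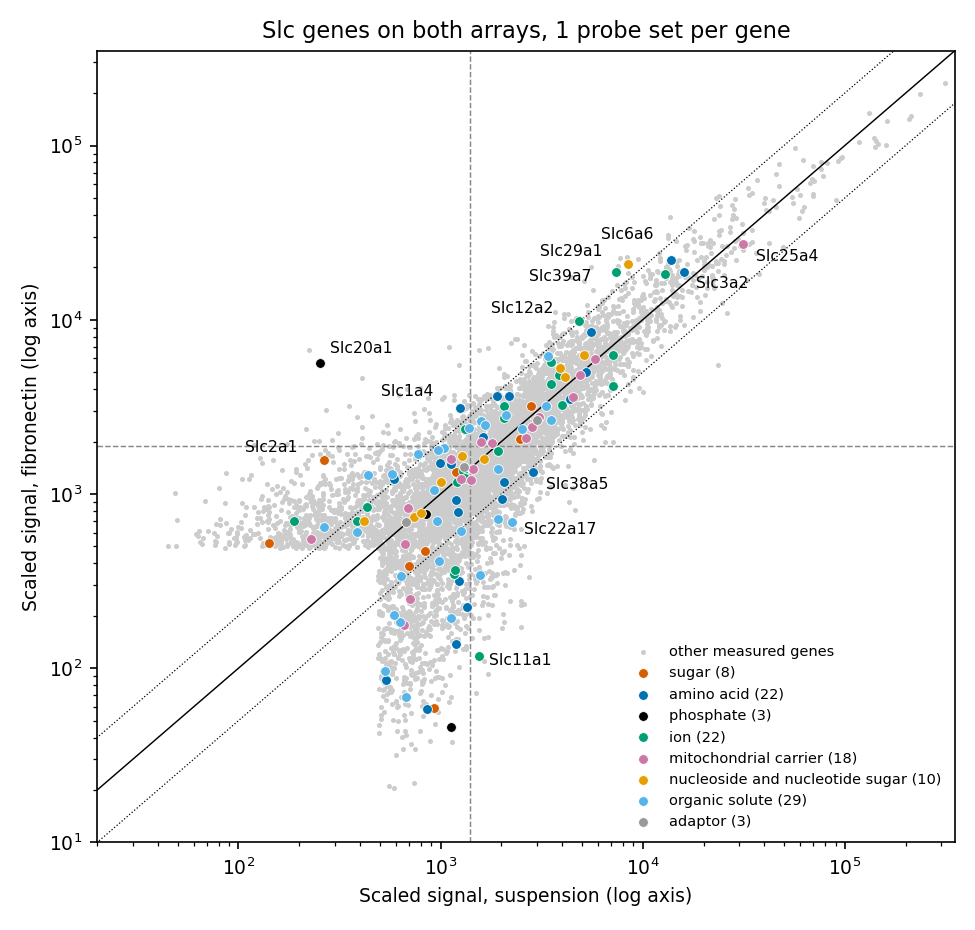
Scaled signal of each measured gene in suspension (x axis, log) and on fibronectin (y axis, log), 1 array each, with the 115 measured Slc genes coloured by class and all other measured genes in grey. The solid line marks equal signals, the dotted lines 2-fold differences and the dashed lines the 95th percentile of the negative controls (1403 and 1873). Slc20a1, with signals of 253 and 5623, lies farthest above the line among the Slc genes, and the 15 genes at least 2-fold lower all lie below the horizontal dashed line.

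Among the 42 genes above the negative controls in both arrays, 12 were higher on fibronectin by 1.5-fold or more (28.6%) and 1 was lower (2.38%). Over all 2263 genes of the array that met the same condition, 16.9% were higher and 7.29% lower by this measure. At 2-fold, 3 were higher and 0 lower, beside 3.80% and 1.02% of all such genes. The median log2 ratio of the 42 was 0.26, against 0.09 over all such genes. Because the limit was higher on fibronectin than in suspension, this condition itself favours higher ratios, and with the limit of 1873 in both arrays the counts were 10 and 1 of 37, beside 15.0% and 7.99% of all genes. Scaling the arrays to these spikes lowers every ratio between unfloored signals by 0.47 and scaling to the median raises it by 0.21. With the spikes, 2 of the 42 were higher and 12 lower by that measure, and the median was -0.21, against -0.38 for all such genes. The directions given here hold for the trimmed-mean scale, and an unfloored log2 ratio between 0 and 0.47 turns negative with the spikes.

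**Figure D2:**
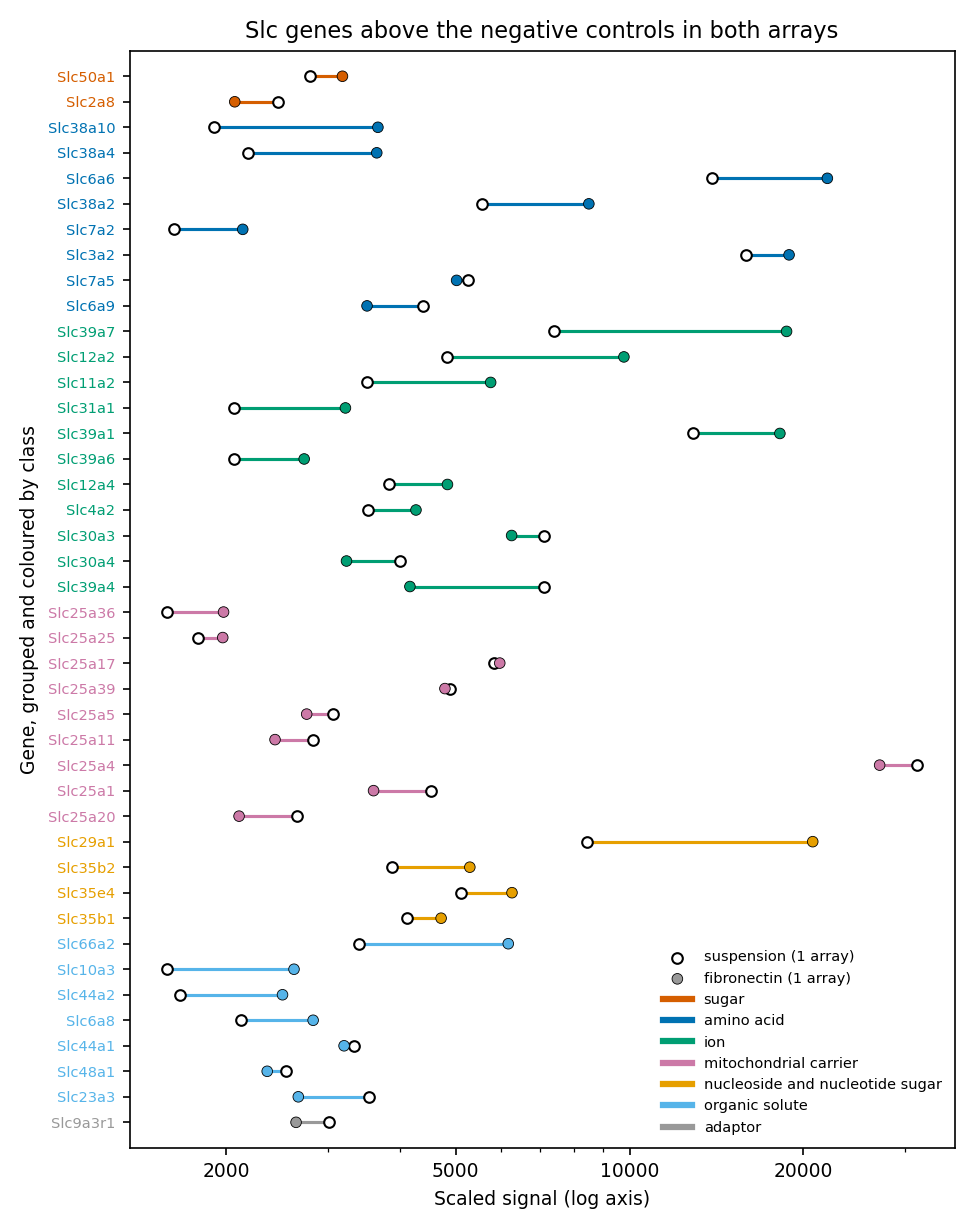
Scaled signals (x axis, log) in suspension (open circles) and on fibronectin (filled circles), 1 array each, for the 42 Slc genes above the negative controls in both arrays, grouped and coloured by class (y axis). Slc39a7, Slc29a1 and Slc12a2 have the widest gaps towards fibronectin, while the gaps of the mitochondrial carriers are narrow.

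Fibronectin signals above the negative controls and ratios past 2-fold upwards were found together in 5 genes: Slc20a1, Slc39a7, Slc1a4, Slc29a1 and Slc12a2. The promoters of 4 of them are shown as context for the highest members. Each is the 250 bases upstream of the most 5′ start listed by RefSeq (GRCm38.p6), in gene orientation, with GC boxes (GGGCGG) and E-boxes (CACGTG), searched on both strands, in capitals.
Slc20a1 promoter, chr2:129198523-129198772, plus strand: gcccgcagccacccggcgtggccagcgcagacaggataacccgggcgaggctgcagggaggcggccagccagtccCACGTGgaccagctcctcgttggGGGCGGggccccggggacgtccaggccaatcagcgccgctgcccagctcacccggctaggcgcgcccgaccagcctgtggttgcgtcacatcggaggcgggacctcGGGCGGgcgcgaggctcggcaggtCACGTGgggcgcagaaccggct
Slc39a7 promoter, chr17:34031691-34031940, minus strand: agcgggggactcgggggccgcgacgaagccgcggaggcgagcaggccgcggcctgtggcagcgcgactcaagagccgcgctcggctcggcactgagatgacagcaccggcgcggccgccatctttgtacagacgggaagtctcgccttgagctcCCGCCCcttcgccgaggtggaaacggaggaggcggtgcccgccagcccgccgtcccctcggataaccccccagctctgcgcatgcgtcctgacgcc
Slc1a4 promoter, chr11:20332714-20332963, minus strand: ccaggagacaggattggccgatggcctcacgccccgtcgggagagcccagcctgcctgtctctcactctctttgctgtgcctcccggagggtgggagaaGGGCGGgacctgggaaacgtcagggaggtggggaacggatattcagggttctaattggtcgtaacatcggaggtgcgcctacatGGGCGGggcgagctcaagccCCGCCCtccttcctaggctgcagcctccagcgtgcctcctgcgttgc
Slc29a1 promoter, chr17:45599619-45599868, minus strand: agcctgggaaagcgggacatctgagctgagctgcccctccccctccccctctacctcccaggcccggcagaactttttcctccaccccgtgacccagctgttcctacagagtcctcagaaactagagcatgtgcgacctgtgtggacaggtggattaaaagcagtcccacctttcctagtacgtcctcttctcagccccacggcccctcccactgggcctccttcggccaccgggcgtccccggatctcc
The stretch of Slc20a1 held 2 GC boxes and 2 E-boxes and was 75.2% G and C. Slc39a7 held 1 GC box and Slc1a4 held 3, with no E-box in either, while the stretch of Slc29a1, a gene with 8 listed starts, held neither. Over the first listed promoter of 27025 genes, 33.0% held a GC box and 6.04% an E-box in the same window. These 27025 genes were not limited to genes of the array or to measured genes. Among the 124 Slc genes of the array with a listed promoter, the shares were 57.3% and 10.5%. The median G and C content of the 31 Slc genes above the negative controls in both arrays was 60.8%, against 52.0% for the 27025 genes. Other genes of the array were not read separately, so whether these differences are particular to Slc genes was not tested. Neither motif was common to all 4 promoters, and a match is a description of the letters only.

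The phosphate carriers were 4 genes, 3 of them measured. Slc20a1 encodes PiT-1, the sodium-coupled phosphate importer found in most cells, which also serves as a receptor for some retroviruses. Its signal was 253 in suspension, inside the range of the negative controls, and 5623 on fibronectin, well above it, so that it was at least 11.5-fold higher. Slc20a1 had the largest ratio of all 115 Slc genes, from 1 probe set. With a floor of 1638, the mean of the 95th percentiles of the negative controls in both arrays, its log2 ratio was still 1.78, and it stayed past 2-fold under all 9 alternatives that gave it a value. The carriers typical of kidney did not share this. Slc34a1, the sodium-phosphate cotransporter of the renal brush border, had 847 and 771 (log2 ratio -0.14). Slc17a1, a kidney and liver anion carrier first described for phosphate, had 1124 and 46 and was at least 2.30-fold lower, from a suspension signal below the negative controls. Slc34a2 was not measured.

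Of 9 sugar carriers 8 were measured, with 4 above and 4 below a ratio of 0 and a median log2 ratio of -0.08. Slc2a1 encodes GLUT1, the basal glucose importer of most cells. It had 264 in suspension and 1563 on fibronectin, at least 3.19-fold higher, the only sugar carrier past 2-fold. Both signals were within the range of the negative controls, and its log2 ratio was 0.57 when the 60th percentile of signals served as floor. The other hexose carriers did not share a direction. Slc2a4 (GLUT4, the insulin-responsive importer of muscle and fat) had 141 and 522, a bound of at least 1.06-fold higher. Slc2a3 (GLUT3, a high-affinity importer of neurons) had 841 and 469 and was at least 1.72-fold lower, with its second probe set below the floor. Slc2a2 (GLUT2 of liver and pancreatic islets) had 923 and 59 and was at least 1.89-fold lower. Slc2a5, a fructose carrier, had 1190 and 1331 (log2 ratio 0.16). Only 2 members were above the negative controls in both arrays: Slc2a8, an intracellular hexose carrier, with 2462 and 2070 (-0.25), and Slc50a1, a sugar carrier of the SWEET family, with 2790 and 3181 (0.19). Slc37a4, which takes glucose 6-phosphate into the endoplasmic reticulum, had 701 and 388 and was at least 1.43-fold lower.

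Of 29 amino acid carriers 22 were measured, 10 above and 12 below 0, with a median of -0.10. By 1.5-fold or more 7 were higher and 8 lower (all measured genes 15.9% and 22.6%). Past 2-fold were 2 and 5 of them (all measured genes 5.79% and 9.27%). Above the negative controls in both arrays were 8, of which 6 had positive ratios, with a median of 0.50. Of these 8, 4 were higher and 0 lower by 1.5-fold or more. Over all genes that met this condition, which itself favours higher ratios, 57.8% had positive ratios. By 1.5-fold or more, 16.9% of them were higher and 7.29% lower. Carriers of neutral amino acids were found on both sides. Slc1a4 (ASCT1, an exchanger of alanine, serine and cysteine) had 1246 and 3109, 2.49-fold higher, and Slc1a5 (ASCT2, a glutamine exchanger) had 999 and 1499 (log2 ratio 0.59). Both signals of Slc1a5 were below the negative controls, whereas that of Slc1a4 on fibronectin was above them. Slc38a2 (SNAT2, a sodium-coupled importer of small neutral amino acids known to be induced by amino acid shortage) had 5555 and 8502, 1.53-fold higher, while its 3 other probe sets were below the floor in both arrays. Slc38a4 (SNAT4) had 2181 and 3648, 1.67-fold higher. Slc38a10, a less studied member of that family, had 1909 and 3664, 1.92-fold higher. Slc38a5 (SNAT5, which also exchanges protons) went the other way, with 2869 and 1335, 2.15-fold lower, its fibronectin signal being below the negative controls.

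Slc3a2 encodes the CD98 heavy chain, which anchors several amino acid exchangers in the membrane and also binds integrin beta subunits. It had 15942 and 18900 (log2 ratio 0.25), far above the negative controls in both arrays. Slc7a5, the LAT1 light chain that pairs with it to import leucine, had 5241 and 5016 (-0.06). Neither of these partners thus differed by more than the SD of a ratio between bright probe sets, 0.40. Other light chains lay near background. Slc7a6 had 590 and 1213, 2.06-fold higher, and at least 1.45-fold higher in its second probe set. Slc7a11, the cystine importer xCT, had 1195 and 137 and was at least 2.44-fold lower, but its suspension signal was below the negative controls. Slc3a1, the heavy chain of kidney cystine transport, had 1358 and 224 and was at least 2.77-fold lower, likewise from below them.

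Of 7 measured amino acid carriers of the sodium- and chloride-coupled Slc6 family, 6 had a ratio below 0, beside 3515 of the 6385 measured genes. Of these 6, 2 were bounds, and only Slc6a9 was above the negative controls in both arrays. The member above 0 was Slc6a6, the taurine importer, which cells use to adjust their volume. It had 13879 and 22019, 1.59-fold higher, and 545 and 1578, 2.89-fold higher, in its second probe set. Slc6a9, the glycine importer GlyT1, had 4390 and 3509 (log2 ratio -0.32). Slc6a15, a neutral amino acid carrier of brain, had 1239 and 317 and was at least 2.53-fold lower. Slc6a18, a carrier of kidney, had 2014 and 936, 2.15-fold lower, with the fibronectin signal below the negative controls. Slc15a2, a proton-coupled peptide importer, had 854 and 58 and was at least 1.74-fold lower.

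Among carriers of ions, 22 of 33 genes were measured, 13 above and 9 below 0. By 1.5-fold or more 6 were higher and 4 lower (all measured genes 15.9% and 22.6%). The median log2 ratio was 0.31, and it was -0.14 when the arrays were scaled to the spikes. Slc39a7 encodes ZIP7, which releases zinc from the endoplasmic reticulum and Golgi into the cytosol. Its signals of 7401 and 18712 made it 2.53-fold higher, and it stayed past 2-fold under 9 of 10 alternatives, with 0.86 on the log2 scale when scaled to the spikes. The other 5 measured zinc importers of the Slc39 family had ratios of smaller size, that of Slc39a3 being a bound. Slc39a1 (ZIP1, at the plasma membrane) had 12862 and 18219 (log2 ratio 0.50), against at least 1.20-fold lower in its dim second probe set. Slc39a6 had 2061 and 2731 (0.41), Slc39a9 had 1210 and 1165 (-0.05), and Slc39a3 was at least 1.72-fold higher at 434 and 840. Slc39a4, the zinc importer of the intestine, was the only Slc gene above the negative controls in both arrays and at least 1.5-fold lower, with 7109 and 4164, 1.71-fold lower. Its second probe set was below the floor in both arrays. The zinc exporters of the Slc30 family lay lower, with 4 of 5 measured members below 0, beside 3515 of the 6385 measured genes. Slc30a1 (ZnT1, the exporter of the plasma membrane) had 1178 and 367 and was at least 2.40-fold lower. Slc30a3, Slc30a4 and Slc30a5, which load vesicles and the Golgi, had log2 ratios of -0.19, -0.31 and -0.09. The member above 0 was Slc30a9, at least 1.43-fold higher at 188 and 702. The importer and exporter families thus had medians of 0.45 and -0.19, over 6 and 5 genes, a difference that was not tested. Small ratios here depend on the scale: with the spikes Slc39a1 had 0.03 and Slc39a6 turned negative, and with scaling to the median Slc30a3 and Slc30a5 turned positive.

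Iron and copper importers were higher in each of their probe sets. Slc11a2 (DMT1, which imports ferrous iron and other divalent metals) had 3506 and 5746, 1.64-fold higher, and 2319 and 4571, 1.97-fold higher, in its second probe set. Slc31a1 (CTR1, the copper importer) had 2067 and 3219, 1.56-fold higher, and 1069 and 2681, 2.51-fold higher, in its second. Slc11a1 (Nramp1), the relative of Slc11a2 in macrophage phagosomes, had 1544 and 117 and was at least 3.15-fold lower, the lowest ratio in this class. The macrophage and blood markers had 0 of 7 genes above the negative controls in both arrays, with summed signals of 5588 and 3868, and their part in this ratio was not tested.

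The cation-chloride cotransporters set cell volume and cell chloride. All 4 measured members had a ratio above 0, beside 44.9% of all measured genes, and 1 of the 4 was a bound. Slc12a2 (NKCC1, which brings sodium, potassium and chloride in) had 4835 and 9779, 2.02-fold higher. Its log2 ratio was 0.54 with scaling to the spikes, 0.85 after quantile normalization and 0.88 after loess. The 2-fold limit was thus not kept under these alternatives. The potassium-chloride exporters Slc12a4 and Slc12a7 had 3836 and 4837 (log2 ratio 0.33) and 1324 and 2363 (0.84), and Slc12a5 was at least 1.43-fold higher at 388 and 701. With scaling to the spikes, Slc12a4 would be lower rather than higher. Of the anion exchangers, Slc4a2 (AE2, which exchanges chloride and bicarbonate in most cells) had 3516 and 4266 (0.28), and Slc4a3 (AE3 of heart and brain) had 1168 and 347, at least 2.38-fold lower from below the negative controls.

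Mitochondrial carriers, which exchange nucleotides, phosphate and metabolites across the inner membrane, differed little between the arrays. Of 20 genes 18 were measured, and 0 differed by 1.5-fold or more, whereas 38.4% of all measured genes were past 1.5-fold in either direction. Their log2 ratios ran from -0.53 to 0.49, with 6 above and 12 below 0 and a median of -0.10. The middle 50% spanned 0.43, against 0.89 for all measured genes. In 3 genes 1 array was below the floor, so that floored values narrow this range. Without a floor 3 of the 18 were past 1.5-fold, beside 48.3% of all genes. In the 9 genes above the negative controls in both arrays the count was 0. Of all genes of the array above them in both, 16.9% were higher and 7.29% lower by this measure, so that 0 of 9 says little. With scaling to the spikes the class moved down with the array, and 9 of 17 were past 1.5-fold, beside 51.6% of all genes, while the middle 50% spanned 0.25, against 0.88 for all. Slc25a4, the ADP/ATP carrier ANT1, had 31516 and 27126 (log2 ratio -0.22). Its relative Slc25a5 (ANT2) had 3059 and 2758 (-0.15), and -0.16 in the second measured probe set. Slc25a3, the phosphate carrier, had 666 and 516 (-0.37), both in the range of the negative controls. Slc25a20, which imports acylcarnitines for fatty acid oxidation, had 2652 and 2106 (-0.33), and Slc25a39, a carrier needed for mitochondrial glutathione, had 4890 and 4788 (-0.03). Slc25a17 belongs to the family but sits in the peroxisome membrane, and it had 5834 and 5958 (0.03). The ends of the range were Slc25a44, a carrier of branched-chain amino acids, with 1128 and 1586 (0.49), and Slc25a47 with 706 and 249, at least 1.44-fold lower. Second probe sets of Slc25a1, the citrate carrier, and of Slc25a51, an NAD carrier, fell outside this band, with log2 ratios of -0.99 and -1.15 against -0.33 and -0.05 in the brighter ones.

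**Figure D3:**
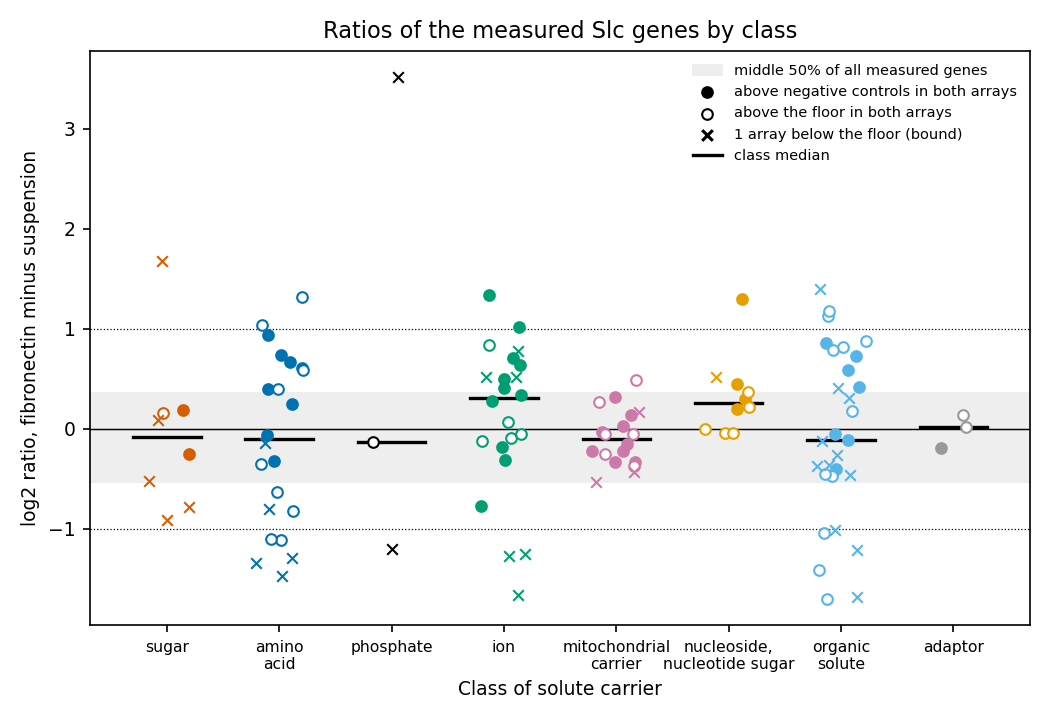
Log2 ratio (fibronectin minus suspension, y axis) of each of the 115 measured Slc genes by class (x axis), from 1 array per group. Filled circles are above the negative controls in both arrays, open circles above the floor in both, and crosses are bounds; black bars are class medians, the grey band is the middle 50% of all measured genes and dotted lines mark 2-fold. The 18 mitochondrial carriers lie between -0.53 and 0.49, and most points below -1 are crosses or open circles.

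Of 12 carriers of nucleosides and nucleotide sugars 10 were measured, 7 above and 3 below 0, with a median of 0.26. Slc29a1 encodes ENT1, through which adenosine and other nucleosides enter and leave most cells. It had 8450 and 20770, 2.46-fold higher, in 1 probe set, and its other probe set was below the floor in both arrays. It stayed past 2-fold under 9 of 10 alternatives, with 0.82 on the log2 scale when scaled to the spikes. The 9 measured members of Slc35, a family that brings activated sugars and sulphate into the Golgi and endoplasmic reticulum for building glycans, were close to each other. Their log2 ratios ran from -0.04 to 0.51. The median was 0.22, which is positive on the trimmed-mean scale but would not be with the spikes. With the floor, 0 were past 1.5-fold, beside 38.4% of all measured genes in either direction. The upper end was the bound of Slc35a1, so that the floor narrows this range. Slc35b2, which supplies the sulphate donor PAPS for proteoglycans, had 3880 and 5288 (log2 ratio 0.45), and Slc35e4 had 5102 and 6257 (0.29). Slc35a1, the carrier of CMP-sialic acid, had 420 and 700, at least 1.43-fold higher.

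The remaining carriers of organic solutes, 29 measured of 41, were divided, with a median of -0.11. By 1.5-fold or more 9 were higher and 6 lower (all measured genes 15.9% and 22.6%). Most of the large ratios rested on signals near background. Slc22a17, which binds and takes up lipocalin 2, had 2247 and 692, 3.25-fold lower. Slc5a11, a sodium-coupled inositol carrier, had 1574 and 342 and was at least 3.21-fold lower. Slc10a1, the bile acid importer of hepatocytes, was at least 2.31-fold lower at 1132 and 195, with its 2 other probe sets below the floor. Slc6a4, the serotonin importer, was 2.05-fold lower at 1259 and 613, and Slc27a5, a bile acid ligase of liver, at least 2.01-fold lower at 986 and 411. The fatty acid carrier Slc27a4 had 772 and 1686, 2.18-fold higher, and Slc22a18, an imprinted organic cation carrier, had 436 and 1290, at least 2.63-fold higher. Slc6a2, the noradrenaline importer, had 577 and 1307, 2.27-fold higher, and 383 and 1210, at least 2.47-fold higher, in its second probe set. All of these fibronectin signals were below the negative controls of 1873. Above the negative controls in both arrays, Slc66a2, a relative of lysosomal amino acid carriers, had 3401 and 6164, 1.81-fold higher, Slc44a1, a choline carrier, had 3327 and 3202 (log2 ratio -0.06), and Slc23a3 had 3531 and 2667 (-0.40). The second probe set of Slc23a3 had 2408 and 1161 (-1.05). The adaptors Slc9a3r1, Slc9a3r2 and Slc4a1ap had log2 ratios of -0.19, 0.14 and 0.02.

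In all, 13 Slc genes had at least 2 measured probe sets, and in 11 of them the 2 brightest had ratios of the same sign, against 678 of 1146 genes (59.2%) over the array. In size their ratios agreed no better, with an SD for a single ratio of 0.76 over the 13 genes, against 0.69 over the 1146. The higher ratios of Slc11a2, Slc31a1, Slc6a6, Slc6a2 and Slc7a6 were seen in both probe sets. Slc19a1, the reduced folate carrier, was in open disagreement: its brighter probe set had 1913 and 718, 2.67-fold lower, and the other 462 and 1545, at least 3.15-fold higher. Its direction was not settled.

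**Figure D4:**
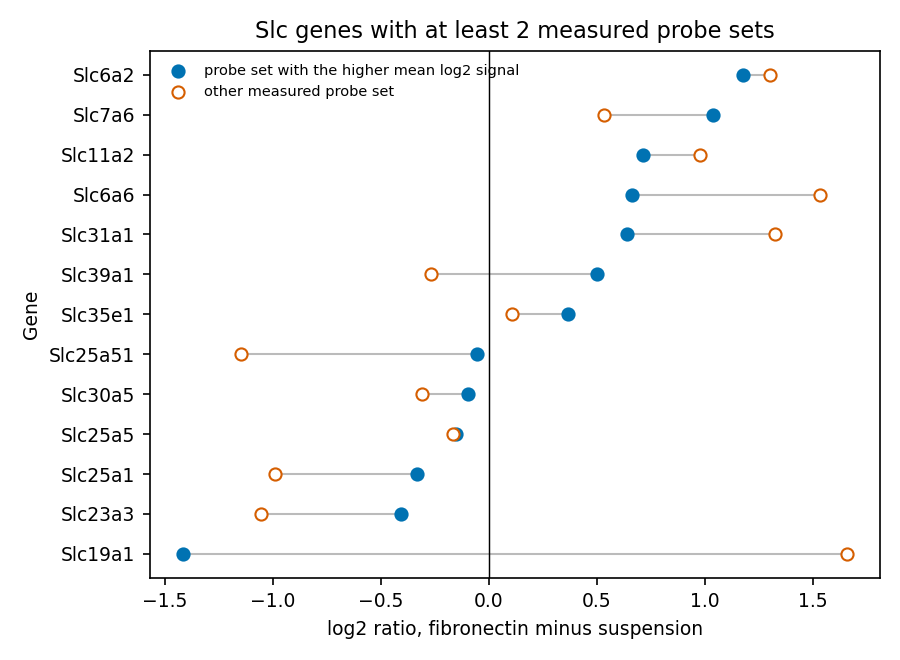
Log2 ratios (fibronectin minus suspension, x axis) of the measured probe sets of the 13 Slc genes (y axis) with at least 2 of them, from 1 array per group. Blue points are the probe sets with the higher mean log2 signal, used for the gene, and open points the others; grey lines join them. Only Slc19a1 and Slc39a1 have points on both sides of 0.

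Proteins that work beside the solute carriers were read from lists that, like the classes, were drawn up with earlier results of these data known. Of the subunits of the Na,K-ATPase, the pump whose sodium gradient drives sodium-coupled carriers, 5 of 7 on the array were measured. The 7 were beta subunits and Fxyd proteins, without an alpha subunit, so that the pump as a whole was not read. Past 1.5-fold were 0 of the 5 measured, beside 38.4% of all measured genes. Fxyd3 and Fxyd5 were bounds, and only Atp1b3 was above the negative controls in both arrays. The beta subunit Atp1b3 had 10203 and 13265 (log2 ratio 0.38). ABC transporters, which use ATP directly, had 17 measured members of 25, of which 2 were higher and 4 lower by 2-fold or more, beside 5.79% and 9.27% of all measured genes, with a median of -0.18. The cholesterol exporter Abcg1 was 3.67-fold lower at 4126 and 1124. Abcf2, a family member without a membrane part, was 3.97-fold higher at 739 and 2935. The fibronectin signal of Abcg1 and the suspension signal of Abcf2 were below the negative controls. Mitochondrial pores and carriers outside the Slc names had 5 measured members, 2 of them higher and 0 lower by 1.5-fold or more. One of the higher ones was Mtch2 with 2940 and 4488 (1.53-fold higher). Over all measured genes, 15.9% were higher and 22.6% lower by 1.5-fold or more. Of 5 measured aquaporins, 4 were lower by 1.5-fold or more and all 4 of these were below the negative controls in both arrays. The water channel Aqp1 was the exception and was above them, with 4086 and 10806, 2.64-fold higher.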

How the data were processed

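The authors deposited 1 signal intensity per probe set and array, linear in scale, and the submitters' processing notes name MAS5. Version and scaling target are not stated in the labels or files. The 2 arrays held 12488 probe sets each. Both were scaled to the mean of their 2% trimmed means over 12422 probe sets that are not controls (factors 0.999 and 1.00). A floor at the mean of the 40th percentiles, 490, was then set and log2 taken. A gene was represented by its measured probe set of highest mean log2 signal. Genes were named from the platform annotation, in which 10833 probe sets have 1 symbol. Ratios were counted at 2-fold and 1.5-fold without a test, as each group had 1 array. The signal of single arrays limits the precision.

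Classes follow the transport family number, with single genes set apart; the adaptors and Slc66a2 were placed after symbols, but not values, were seen. The members, classes and lists were chosen with earlier results of these data known. Named were all genes past 2-fold, the 5 largest ratios and 3 highest mean signals per class, and a list of well-known carriers (60 genes in all). Other members were named after their values were seen. Not used was 1 probe set assigned to several genes, at least 1 of them with an Slc symbol. Alternatives changed the scaling, floor, probe set or filter, 10 in all. Code was tested on simulated data and used Python 3.11.15, numpy 2.4.6, pandas 2.3.3, scipy 1.17.1 and statsmodels 0.14.6. Promoters came from RefSeq (GRCm38.p6). Chip lot and scan settings were read but entered no calculation.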

Additional observations from a re-analysis of the deposited data

How the results depend on the processing

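The count of Slc genes at least 2-fold higher, 10, was 3 with scaling to the hybridisation spikes. It was 16 when the floor was lowered to the 20th percentile, 5 when it was raised to the 60th and 4 at the negative controls. The count at least 2-fold lower, 15, was 26 with the lower floor, 2 at the 60th percentile, 0 at the negative controls, 24 without a floor and 5 where both arrays had to reach the floor, so this count rests on signals near the floor. The split of 10 against 15 was 15 against 11 under median scaling. The median log2 ratio, -0.03, was 0.16 under median scaling, 0.10 after quantile normalization, 0.14 after loess, -0.45 with the spikes, 0.071 and 0.15 with the floors at the 60th percentile and the negative controls and 0.14 where both arrays had to reach the floor. It lay above the median of all genes in all 10 alternatives, by 0.06 to 0.21. Chosen after seeing the data were 3 further counts. Genes above the negative controls and at least 1.5-fold higher, 12, were 2 with the spikes, and those lower, 1, were 0 under median scaling and 12 with the spikes. Mitochondrial carriers past 1.5-fold, 0, were 1 under median scaling, quantile normalization and loess, 9 with the spikes, 3 with the floor at the 20th percentile and without a floor, and 2 with the mean of probe sets. Slc19a1 turned to 0.12 with the mean of its probe sets. No paired analysis was possible because each group has 1 array. With 1 array per group, no replicate could be left out.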
